A study of Homo sapiens with 22 samples.

Results

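The transcripts described here are those of 10 human genes that carry iron into, store iron in and release iron from intestinal epithelial cells. They were chosen by name from 61487 genes counted in Caco-2 cells. The rule itself uses no measured value, but the choice was made with earlier results of these data known. The members are TFRC, SLC11A2, CYBRD1 and SLC39A14 for uptake, FTH1 and FTL for storage, SLC40A1 and HEPH for export, IREB2 for regulation, and HAMP, the iron hormone. Of the 10, 9 were among the 20373 genes with enough reads to test, and HAMP was not.

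Caco-2, a line from a human colorectal adenocarcinoma that is used as a model of the gut epithelium, was exposed in the undifferentiated state for 48 h with 10% of its medium replaced by 1 of 4 fluids. The fluids were PBS as vehicle (n = 4), faecal water of untreated mice (FWctl, n = 7), faecal water collected from the same mice once they had received antibiotics (FWatb, n = 7), and the antibiotic cocktail itself (ATB, n = 4; neomycin at 1 g/L, vancomycin at 0.5 g/L and meropenem at 0.25 g/L). The antibiotic strengths are those stated for the drinking water of the mice, and no strength in the cell medium is stated. Faecal water is the supernatant of faeces homogenised in PBS. The comparisons made here are of each fluid with PBS, and of faecal water from the mice under antibiotics with that from the untreated mice. All groups share 1 cell line, and nothing in the sources says that the wells were separate cultures, so p-values measure the spread between these samples only. The study calls its faecal waters biological replicates, so the spread within FWctl and FWatb may include differences between mice. No mouse material went into the PBS and ATB samples.

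Iron enters an enterocyte after reduction to the ferrous form at the apical membrane, is held in ferritin, and leaves across the basolateral membrane through ferroportin. Cells also take up iron bound to transferrin by endocytosis of the transferrin receptor. Iron regulatory proteins set these steps by binding iron-responsive elements (IREs), short stem-loops in the untranslated regions (UTRs) of the messengers: when iron is low they block translation of ferritin and ferroportin through elements in the 5′ UTR, and they protect the transferrin receptor messenger from decay through elements in the 3′ UTR. These are background facts on protein and messenger control, and only messenger reads were measured here.

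The sequences of IREs are shown because they mark where in the members' messengers elements of this form lie, and they were read from the GRCh38 genome for the transcripts of GENCODE release 44. The search, on the transcribed strand only, was for an unpaired C, 5 bases, the loop CAGTGN, and 5 bases able to pair with the first 5 (G-T pairs allowed). Capitals mark the unpaired C and the loop, 5′ to 3′, with T for U.
FTH1, 5′ UTR, chr11:61967574-61967602, minus strand: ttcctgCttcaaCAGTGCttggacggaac
FTL, 5′ UTR, chr19:48965335-48965363, plus strand: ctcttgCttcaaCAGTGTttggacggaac
SLC40A1, 5′ UTR, chr2:189580661-189580689, minus strand: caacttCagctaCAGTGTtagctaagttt
TFRC, 3′ UTR, chr3:196050979-196051007, minus strand: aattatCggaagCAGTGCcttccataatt
TFRC, 3′ UTR, chr3:196050575-196050603, minus strand: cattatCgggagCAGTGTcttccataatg
TFRC, 3′ UTR, chr3:196050510-196050538, minus strand: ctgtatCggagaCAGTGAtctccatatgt
TFRC, 3′ UTR, chr3:196050463-196050491, minus strand: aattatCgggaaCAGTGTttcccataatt
The pattern was found in the 5′ UTR of 20 of 19647 canonical transcripts (0.102%) and in the 3′ UTR of 122 of 19571 (0.623%). It was found in none of the transcripts of the other 6 members, which says only that these letters are not in their UTRs. The search required all 5 pairs and allowed no further unpaired base in the stem. Elements of another form would be missed, so no member can be said to lack an IRE, or to have no more than those shown. A match is a description of the letters, not a measurement of protein binding.

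Values are read counts normalised by the TMM method, which scales each library for depth and composition, and they are given on the scale of a library of average size. A gene is said to be higher or lower where edgeR's quasi-likelihood test gave a Benjamini-Hochberg adjusted p under 0.05 over all 20373 genes. Errors of means are SD, and errors of log2 fold changes are standard errors (SE). FWctl replicate 1 is shown apart and stays out of means and tests: the study's methods left out 1 unnamed FWctl sample as an outlier, and on the first principal component this library lay at 9.06, between the other FWctl samples (36 to 40.8) and the rest (-19.1 to -13.2).

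Total counts ran from 7118302 to 18726967 per library (median 10825978). Reads near the genes of the ribosomal DNA repeat (within 20 kb of RNA5-8SN1 to RNA5-8SN3) took 0.0162% to 0.0802% of counts in 8 libraries, called low-rDNA here, and 1.87% to 8.18% in the other 14, called high-rDNA. The sets also differed in depth without overlap, at 15604065 to 18726967 total counts in the low-rDNA libraries and 7118302 to 12248577 in the high-rDNA ones. A dependence on the library set thus cannot be told apart from one on depth. The labels name no batch, and every FWatb library was in the set of 14. Fits within a set left out FWctl replicate 1, which entered no test of the 21 samples, and ATB replicate 2, the lone ATB library of the high-rDNA set. Markers of intestinal epithelium were abundant (EPCAM, KRT8, KRT18, CDX2 and VIL1 summed to 19368 to 28473 over the 21 samples tested). Those of other cells (PTPRC, CD3E, CD68, COL1A1 and PECAM1) summed to 29.1 to 64.3 under FWctl and to 128.1 to 243.1 in the other groups. COL1A1 and PECAM1 made up most of that sum, PTPRC and CD68 had a median of 0, and the part of this difference in the results below was not tested.

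Per kilobase of canonical transcript and per 1000000 counts, FTL was the most abundant member under PBS, at 1519. TFRC followed at 232.1, SLC39A14 at 150.2, SLC11A2 at 70.1, SLC40A1 at 59.5, HEPH at 56.9, CYBRD1 at 24.7, IREB2 at 12.9 and FTH1 at 11.5. SLC40A1 and HEPH differed by less than the spread between their samples, as did IREB2 and FTH1. The FTH1 level may not be comparable with those of the other members. BEST1, a gene on the opposite strand, has exons that cover 73.2% of the canonical FTH1 exon bases. Whether FTH1 reads went uncounted there was not tested, so its last place describes the counts only. The order depends on the length used: per kilobase of all annotated exons, SLC39A14 (101.4) stood above TFRC (66.9) and SLC40A1 (47) above SLC11A2 (29.3).

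Messengers of 3 of the 4 uptake genes were lower and both ferritin messengers were higher under FWctl than under PBS, and each of these 5 differed the other way between FWatb and FWctl. Against PBS, TFRC fell to 51.9%, SLC11A2 to 49.3% and CYBRD1 to 56.9% under FWctl, whereas FTL reached 298% and FTH1 174%. Of the 9 members tested, 8 were called in FWctl against PBS, 4 in FWatb against PBS, 1 in ATB against PBS and 6 in FWatb against FWctl. Over all genes tested, 46.4% were called in FWctl against PBS, 9.99% in FWatb against PBS, 0.285% in ATB against PBS and 48.8% in FWatb against FWctl. The comparisons share control samples: the FWctl samples serve in the first and the last, and the PBS samples in the first 3.

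**Figure D1:**
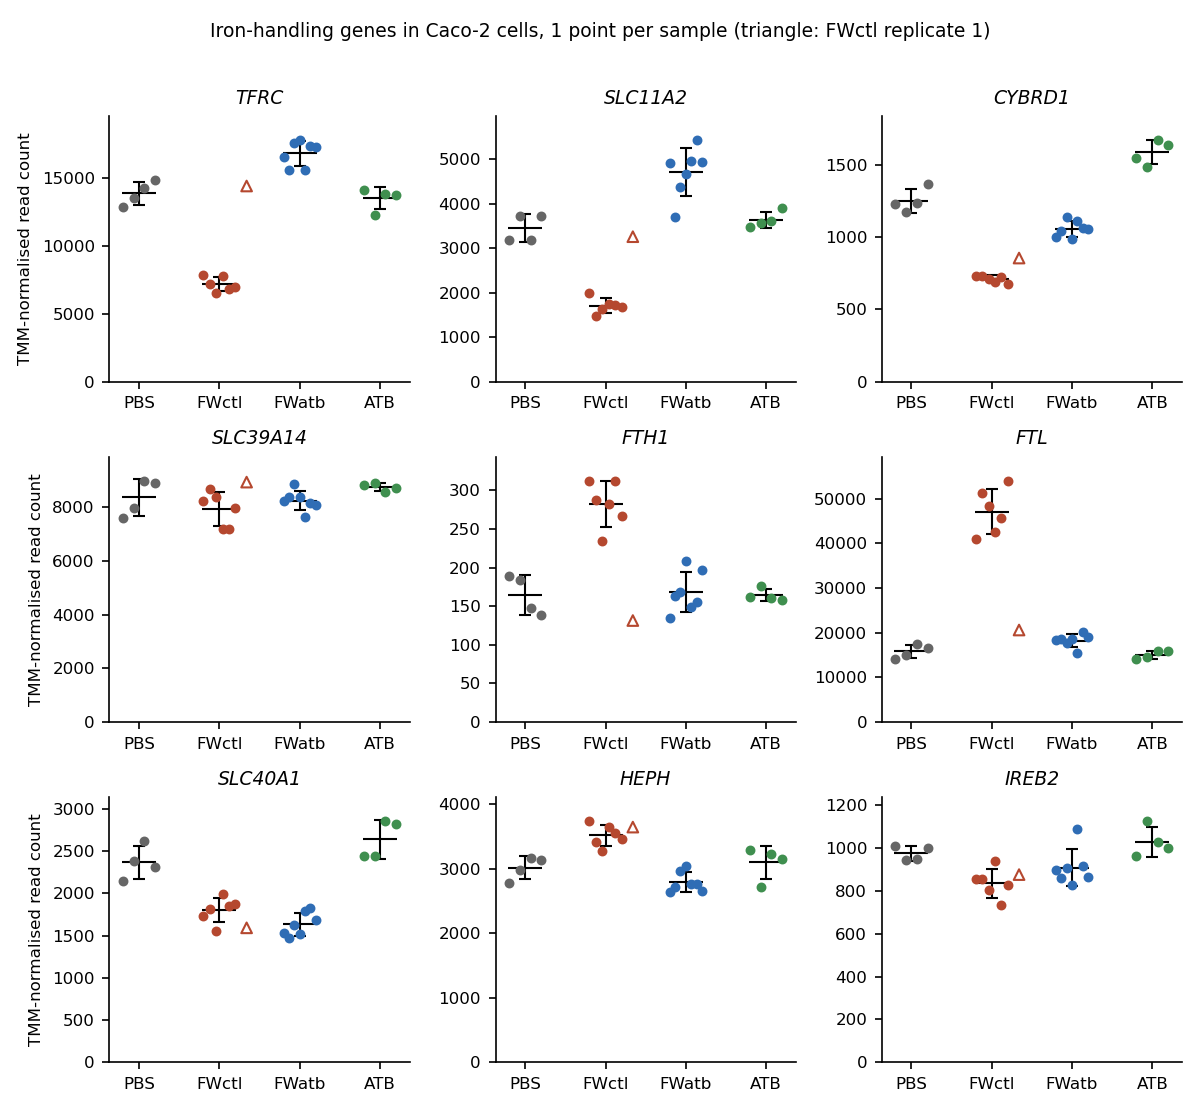
TMM-normalised read counts (vertical axes, from 0) of the 9 tested members in the 4 conditions (horizontal axes), 1 point per sample, with horizontal lines at the mean and bars of 1 SD; the open triangle is FWctl replicate 1. The 6 FWctl points lie below all PBS points for TFRC, SLC11A2 and CYBRD1 and above them for FTL and FTH1, and SLC39A14 is at a similar level in every condition.

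TFRC encodes the transferrin receptor, which takes up transferrin-bound iron (chr3:196012511-196082153, minus strand). Its 4 PBS samples had normalised counts of 12902, 13516, 14314 and 14863. The 6 FWctl samples ran from 6562 to 7841 with a median of 7118, and the 7 FWatb samples from 15624 to 17797 with a median of 17282. The 4 ATB samples, at 14156, 12324, 13842 and 13792, overlapped PBS, whereas the FWctl samples all lay below PBS and the FWatb samples all above it. The log2 fold change was -0.95 ± 0.08 (SE) in FWctl against PBS (adjusted p = 3.51e-13) and 1.22 ± 0.07 in FWatb against FWctl (adjusted p = 4.33e-18). Between FWatb and PBS it was 0.28 ± 0.08 (adjusted p = 0.0176), a call that was lost over all 22 samples (0.27, adjusted p = 0.283), with no filter on low counts (0.26, adjusted p = 0.0902) and when any of 6 libraries was left out. Those were PBS replicates 1 (0.23, adjusted p = 0.134) and 2 (0.26, adjusted p = 0.0725) and FWatb replicates 1, 3, 4 and 8 (0.25 to 0.27, adjusted p = 0.0519 to 0.0685). Bulk counts cannot tell a change in the number of cells with a messenger from a change in the amount per cell, for TFRC as for the other genes. TFRC shares 1.1% of its exon bases with a long non-coding RNA on the other strand.

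SLC11A2 encodes DMT1, the ferrous iron transporter of the apical membrane and of endosomes (chr12:50979401-51028566, minus strand). Its PBS samples stood at 3198, 3723, 3186 and 3738. FWctl samples ran from 1473 to 1990 (median 1693), FWatb samples from 3712 to 5429 (median 4921), and the ATB samples were at 3486, 3561, 3625 and 3898. All FWctl samples were below all others, and 1 FWatb sample, replicate 2 at 3712, fell within the PBS range. The log2 fold change was -1.02 ± 0.08 in FWctl against PBS (adjusted p = 1.92e-13), 0.45 ± 0.08 in FWatb against PBS (adjusted p = 0.000271) and 1.47 ± 0.08 in FWatb against FWctl (adjusted p = 9.71e-20).

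CYBRD1 encodes duodenal cytochrome b, a ferric reductase of the apical membrane (chr2:171522247-171558129, plus strand). Its PBS values were 1228, 1174, 1237 and 1371. FWctl samples lay between 677.6 and 733.3 (median 721.2), FWatb samples between 990.6 and 1144 (median 1060), and the ATB samples at 1553, 1490, 1672 and 1643. None of the 4 groups overlapped another, in the order FWctl, FWatb, PBS and ATB. The log2 fold change was -0.81 ± 0.07 in FWctl against PBS (adjusted p = 1.38e-13) and 0.57 ± 0.06 in FWatb against FWctl (adjusted p = 7.26e-11). CYBRD1 thus differed from TFRC and SLC11A2 in its FWatb level, which was below PBS and not above it (-0.24 ± 0.06, adjusted p = 0.0101). That call was lost without PBS replicate 4 (-0.19, adjusted p = 0.0784), with libraries scaled by size alone (-0.17, adjusted p = 0.151), within the high-rDNA libraries (-0.18, adjusted p = 0.217) and with the library set as a term (-0.19, adjusted p = 0.0762). CYBRD1 was also the 1 member called in ATB against PBS, at 0.34 ± 0.07 (adjusted p = 0.0204). This call was lost over all 22 samples (adjusted p = 0.219), within the low-rDNA libraries (3 ATB and 2 PBS samples; 0.30, adjusted p = 0.217), without ATB replicates 3 or 4 (0.31 for each) and without PBS replicates 1, 2 or 3 (0.30 to 0.33), though the value itself stayed between 0.30 and 0.39 in all alternatives.

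SLC39A14 encodes ZIP14, a membrane carrier of iron not bound to transferrin and of other divalent metals. Its 4 PBS samples, at 7610, 7970, 8989 and 8914, spanned nearly the same range as the FWctl samples (7194 to 8683, median 8106). FWatb samples ran from 7641 to 8871 (median 8239), and the ATB samples were at 8846, 8890, 8560 and 8706. It passed the test in no comparison. The 95% interval of the log2 fold change was -0.23 to 0.08 in FWctl against PBS, -0.17 to 0.13 in FWatb against PBS, -0.10 to 0.23 in ATB against PBS and -0.08 to 0.19 in FWatb against FWctl.

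FTL encodes the light chain of ferritin, the shell in which cells hold iron (chr19:48965309-48966879, plus strand). The PBS samples had 14108, 15079, 17571 and 16480 normalised counts. The FWctl samples had 41029 to 53985 (median 46939), the FWatb samples 15546 to 20130 (median 18511), and the ATB samples 14022, 14532, 15812 and 15816. FWctl stood clear of the other 3 groups, whose ranges overlapped. The log2 fold change was 1.58 ± 0.10 in FWctl against PBS (adjusted p = 5.37e-17), the largest of any member in that comparison, and -1.37 ± 0.08 in FWatb against FWctl (adjusted p = 6.48e-18). Between FWatb and PBS it was 0.21 ± 0.09 and not called (adjusted p = 0.161), though it was called with libraries scaled by size alone (0.28, adjusted p = 0.0339).

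FTH1 encodes the heavy chain of ferritin, which oxidises iron as it enters the shell (chr11:61959718-61967634, minus strand). Its PBS samples were at 189.7, 183.4, 147.2 and 138.3. FWctl samples ran from 233.9 to 312.3 (median 284.8), FWatb samples from 135.2 to 208.8 (median 163.6), and the ATB samples were at 162.2, 175.5, 161.1 and 157.5. As for FTL, all 6 FWctl samples were above all samples of the other groups, which overlapped. The log2 fold change was 0.80 ± 0.11 in FWctl against PBS (adjusted p = 5.96e-08) and -0.75 ± 0.09 in FWatb against FWctl (adjusted p = 8.61e-09). The size of the first depended on the library set, at 0.53 ± 0.15 within the high-rDNA libraries (adjusted p = 0.00457) and 1.02 ± 0.12 within the low-rDNA ones (adjusted p = 1.81e-07).

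The FTH1 counts were low beside those of FTL. Raw counts were 96 to 466 per library, against 7949 to 75339 for FTL. Of the 1203 exon bases of its canonical transcript, 880 (73.2%, all of exons 2 to 4) lie within exons of BEST1, a chloride channel gene on the other strand, and the strand setting of the read counting is not given in the sources used here. BEST1 itself had a mean of 240.4 ± 29.9 (SD, n = 6) under FWctl and of 28.7 ± 8.22 (n = 4) under PBS, a log2 fold change of 3.06 ± 0.16 (adjusted p = 6.79e-20). How many reads of either gene were assigned to the other, or to neither, was not tested. Adding the counts of 25 processed FTH1 copies, which were 5.49% to 17.1% of the sum, left the FTH1 log2 fold change in FWctl against PBS at 0.79, and adding 16 FTL copies (at most 0.248% of the sum) left that of FTL at 1.57. How reads with several matches were handled is not given. These sums therefore cannot show reads that were counted for neither a gene nor its copies. The ratio of FTL to FTH1 counts was 98.8 ± 23.8 (SD, n = 4) under PBS, 169.2 ± 31.2 (n = 6) under FWctl, 110.3 ± 17 (n = 7) under FWatb and 91.9 ± 8.64 (n = 4) under ATB.

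**Figure D2:**
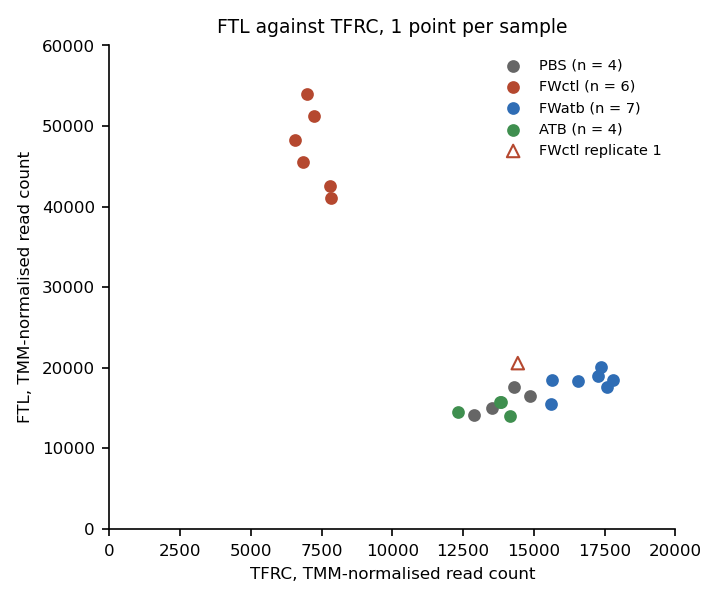
FTL (vertical axis) against TFRC (horizontal axis) in TMM-normalised read counts, both axes from 0, 1 point per sample coloured by condition, with FWctl replicate 1 as an open triangle. The 6 FWctl points form a separate cluster at high FTL and low TFRC, and the triangle, at a TFRC of 14434 and an FTL of 20592, lies near the points of the other conditions.

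The ratio of FTL to TFRC counts was not among the planned results and is given as a description. That it separated the 6 FWctl samples tested follows from each gene alone. All 6 were above the other groups for FTL and below them for TFRC. The ratio was 1.09, 1.12, 1.23 and 1.11 in the PBS samples and 5.23 to 7.71 in those 6. It was 1.43 in FWctl replicate 1, which was left out of the tests. The FWatb samples were at 0.995 to 1.18 and the ATB samples at 0.991, 1.18, 1.14 and 1.15, so both lay about the PBS values. In the 6 FWctl samples the ratio had a mean of 6.58 ± 1.02 (SD, n = 6), against 1.14 ± 0.0615 under PBS (n = 4).

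SLC40A1 encodes ferroportin, the iron exporter of the basolateral membrane (chr2:189560590-189583758, minus strand). Its PBS samples stood at 2144, 2389, 2626 and 2309. FWctl samples ran from 1559 to 1988 (median 1833), FWatb samples from 1468 to 1829 (median 1629), and the ATB samples were at 2447, 2439, 2855 and 2826. Both kinds of faecal water left SLC40A1 below every PBS and ATB sample, and the FWctl and FWatb ranges overlapped. The log2 fold change was -0.39 ± 0.08 in FWctl against PBS (adjusted p = 4.16e-05) and -0.53 ± 0.07 in FWatb against PBS (adjusted p = 3.54e-06). FWatb against FWctl gave -0.14 ± 0.07, which did not pass the test (adjusted p = 0.0851) except without FWatb replicate 7 (-0.17, adjusted p = 0.0431).

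HEPH encodes hephaestin, the copper ferroxidase that works beside ferroportin (chrX:66162671-66268867, plus strand). The PBS samples were at 2779, 2974, 3166 and 3135, the FWctl samples at 3275 to 3736 (median 3511) and the FWatb samples at 2645 to 3050 (median 2757). The ATB samples, at 3294, 2720, 3223 and 3153, overlapped PBS, and only the FWctl samples did not. FWctl against PBS gave a log2 fold change of 0.22 ± 0.07 (adjusted p = 0.0078), which was lost without PBS replicate 1 (0.15, adjusted p = 0.139), PBS replicate 2 (0.17, adjusted p = 0.0715) or FWctl replicate 6 (0.17, adjusted p = 0.0578), with no filter on low counts (0.21, adjusted p = 0.0623) and within the low-rDNA libraries (0.13, adjusted p = 0.288). The difference between FWatb and FWctl, -0.33 ± 0.06 (adjusted p = 1.06e-05), was called in every alternative fit, with values from -0.33 to -0.22. It did not pass the added threshold on the fold change.

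IREB2 encodes iron regulatory protein 2, the IRE-binding protein that is degraded when iron is ample (chr15:78437431-78501453, plus strand). Its PBS samples were at 1008, 945.4, 945.7 and 1001. FWctl samples ran from 734.5 to 937.7 (median 840.0), FWatb samples from 826.9 to 1088 (median 896.7), and the ATB samples were at 962.1, 1124, 1026 and 998.4. The FWctl samples lay just below all PBS samples (-0.22 ± 0.07, adjusted p = 0.012), and this call held in every alternative. FWatb against FWctl was not called (0.12 ± 0.07, adjusted p = 0.128), but it was with the mouse number as a block (0.15 ± 0.06, adjusted p = 0.0223), with libraries scaled by size alone (0.23, adjusted p = 0.00957), without FWatb replicate 4 (0.17, adjusted p = 0.033) and without FWctl replicate 6 (0.19, adjusted p = 0.0199).

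HAMP encodes hepcidin, the liver hormone that binds ferroportin and leads to its degradation (chr19:35280716-35285143, plus strand). It had 0 to 3 raw reads per library and 10 reads over all 22 libraries, and it was not tested. No difference between conditions was detectable at this depth.

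**Figure D3:**
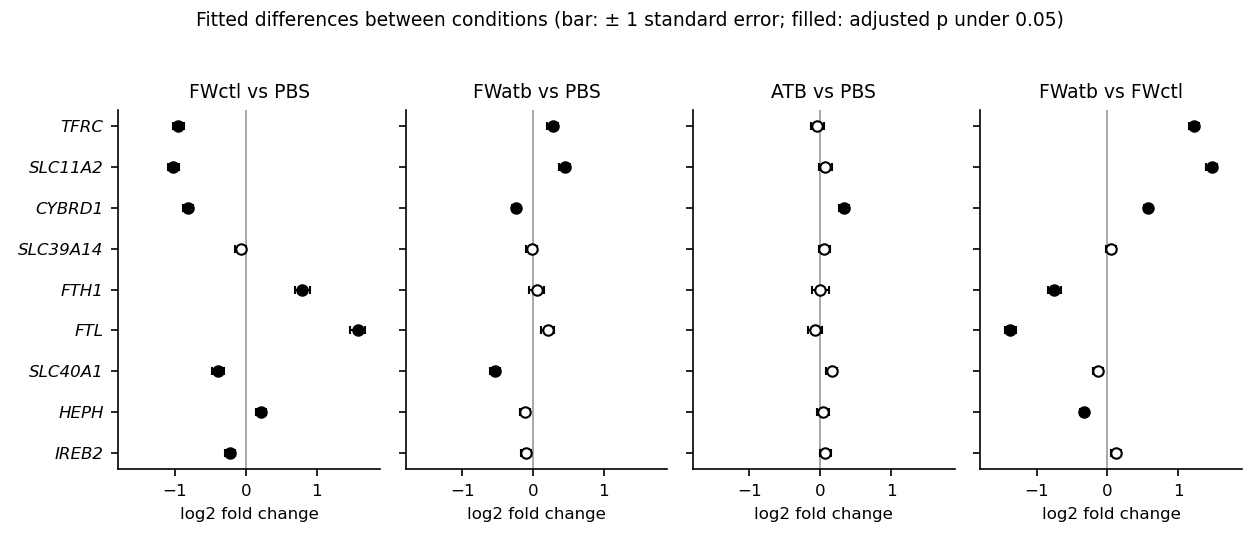
Log2 fold changes (horizontal axes) of the 9 tested members (rows) in the 4 comparisons (panels), with bars of 1 SE; filled points passed the test and open ones did not. In FWctl against PBS the values run from -1.02 for SLC11A2 to 1.58 for FTL, and in FWatb against FWctl TFRC, SLC11A2 and CYBRD1 are higher while FTL, FTH1 and HEPH are lower.

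Side by side, the 9 members had a median log2 fold change of -0.22 in FWctl against PBS (0.02 over all genes) and a median absolute value of 0.80 (0.41 over all genes). The call rate of 8 of 9 stood against 46.4% of all genes, and 8 members had groups that did not overlap, against 33.7% of all genes. Of those called, 3 were higher (24.3% of all genes) and 5 lower (22.1%). With a stricter low-count filter, 8 of 9 members and 9000 of 15799 genes were called in that comparison. Against PBS, FWatb had 2 members higher (TFRC and SLC11A2; 6.04% of all genes) and 2 lower (CYBRD1 and SLC40A1; 3.95%), 3 members with groups that did not overlap (6.86%), and a median absolute value of 0.21 (0.19 over all genes). The whole table had 1231 higher and 804 lower calls in that comparison, or 2090 and 411 with libraries scaled by size alone. In ATB against PBS, CYBRD1 was the 1 member higher (0.255% of all genes) and the 1 member with groups that did not overlap (5.58%). In FWatb against FWctl, 3 members were higher (23.4% of all genes) and 3 lower (25.4%), and these 6 had groups that did not overlap (25.5%). With an absolute log2 fold change above 1 also required, TFRC, SLC11A2 and FTL remained, against 12.7% of all genes. Over all genes that comparison had 4762 higher and 5180 lower calls, or 5808 and 3933 with libraries scaled by size alone.

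FWctl replicate 1 stood apart from the other FWctl samples for 6 of the 9 tested members and within their range for SLC40A1 (1593), HEPH (3645) and IREB2 (875.2). Its TFRC count of 14434 and SLC11A2 count of 3262 were within the PBS range. Its FTL count of 20592 was above all PBS samples but below all other FWctl samples, CYBRD1 at 856.6 lay between the FWctl and FWatb samples, SLC39A14 at 8941 was above all other FWctl samples, and FTH1 at 131.4 was below every other sample. With this library among the FWctl samples, the log2 fold change against PBS was -0.79 for TFRC, -0.87 for SLC11A2, -0.80 for CYBRD1, 1.42 for FTL and 0.64 for FTH1, each still called (adjusted p = 0.00081 for FTH1 and at most 9.44e-06 for the others).

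A wider list of 65 iron and haem genes, the members included, was drawn up by role, with the members' results known. Of these, 58 were tested. In FWctl against PBS, 35 were called (16 higher and 19 lower), or 27 of the 49 that are not members (55.1%, against 46.4% of all genes). The share of all genes depends on the low-count filter. With the stricter filter, 35 of 56 list genes were called, 8 of them members, against 9000 of 15799 genes. In FWatb against PBS, 18 were called (13 higher and 5 lower), or 14 of 49 without the members (28.6%, against 9.99%). That count of 18 was 11 over all 22 samples and without PBS replicate 1 or 2, and 8 within the high-rDNA libraries. With the stricter filter, 18 of 56 list genes were called, against 2214 of 15799 genes. In ATB against PBS, CYBRD1 was the 1 call among the 58. In FWatb against FWctl, 36 were called (19 higher and 17 lower), or 30 of 49 without the members (61.2%, against 48.8%). With the stricter filter, 38 of 56 list genes were called, against 9379 of 15799 genes. The median log2 fold change of the 58 was 0.00, 0.04, 0.01 and 0.11 in the 4 comparisons, against 0.02, 0.00, 0.00 and -0.01 over all genes.

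With the members included, 15 uptake genes were tested, and 9 (60%) were called in FWctl against PBS (3 higher and 6 lower). Over all genes the share was 46.4%. SLC46A1, a carrier of folate and haem, had a mean of 575.2 ± 57.2 (SD, n = 4) under PBS, 451.0 ± 61.5 (n = 6) under FWctl and 699.6 ± 65.9 (n = 7) under FWatb. It was lower in FWctl than PBS (log2 fold change -0.34 ± 0.09, adjusted p = 0.00179) and higher in FWatb than FWctl (0.62 ± 0.08, adjusted p = 1.26e-08). The means of STEAP1 and STEAP3 had the same order, FWctl below PBS below FWatb. STEAP3, which reduces iron in endosomes, had means of 193.7 ± 32.1 under PBS, 160.7 ± 14 under FWctl and 265.1 ± 47.6 under FWatb, and STEAP1 means of 359.7 ± 29.6, 304.4 ± 21.4 and 442.0 ± 27. Both were higher in FWatb than FWctl (0.70 ± 0.11 with adjusted p = 3.7e-07 for STEAP3, 0.53 ± 0.07 with adjusted p = 5.38e-08 for STEAP1). STEAP1 was lower in FWctl than PBS (-0.24 ± 0.08, adjusted p = 0.0154), though not without PBS replicate 4 (-0.18, adjusted p = 0.105), over all 22 samples (-0.16, adjusted p = 0.248) or within the high-rDNA libraries (-0.23, adjusted p = 0.112), and STEAP3 was not called there (-0.24 ± 0.12, adjusted p = 0.0959). SLC39A8, the ZIP8 metal carrier, rose from 138.6 ± 14.7 under PBS to 181.9 ± 22.8 under FWctl (0.38 ± 0.11, adjusted p = 0.00392), a call that was lost within the low-rDNA libraries (0.20, adjusted p = 0.266). LCN2, which binds the iron carriers of bacteria, was noticed after its values were seen: its mean was 83.4 under FWctl, 0.592 under PBS and 0 under FWatb.

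In the export group, all 4 genes tested, the members SLC40A1 and HEPH included, were called in FWctl against PBS (1 higher and 3 lower). Over all genes the share was 46.4%. FLVCR1, a haem exporter, fell from 1664 ± 86.3 (n = 4) under PBS to 984.0 ± 66.8 (n = 6) under FWctl, with no overlap (-0.76 ± 0.07, adjusted p = 2.76e-12), and stood at 1578 ± 109.1 (n = 7) under FWatb. Its difference between FWatb and FWctl was 0.68 ± 0.06 (adjusted p = 1.55e-12). Among the regulators, the member IREB2 included, 3 of 4 were called in FWctl against PBS (46.4% of all genes). ACO1, iron regulatory protein 1, fell from 1672 ± 104.8 to 1444 ± 58.1 (-0.21 ± 0.07, adjusted p = 0.00715), and within the high-rDNA libraries the value was -0.15 and not called (adjusted p = 0.206). FBXL5, the ubiquitin ligase subunit that directs the degradation of iron regulatory proteins, was at 553.6 ± 24.2 under PBS and 657.3 ± 52 under FWctl (0.25 ± 0.08, adjusted p = 0.00684). The FBXL5 call was lost within either library set (0.24 with adjusted p = 0.0778 and 0.19 with adjusted p = 0.128) and without PBS replicates 2 or 3 or FWctl replicate 7 (0.17 to 0.20). In FWatb against FWctl, ACO1 was higher (0.30 ± 0.06, adjusted p = 3.55e-05) and FBXL5 lower (-0.31 ± 0.07, adjusted p = 0.000158).

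The hepcidin axis held 4 tested genes, of which 2 were lower in FWctl than PBS. Over all genes 46.4% were called in that comparison, 22.1% as lower. TMPRSS6, the protease that restrains hepcidin production in the liver, fell from 161.0 ± 14.4 (n = 4) under PBS to 43.7 ± 8.98 (n = 6) under FWctl (-1.85 ± 0.13, adjusted p = 1.68e-15). Under FWatb it was at 96.1 ± 14.7 (n = 7), below PBS (-0.73 ± 0.11, adjusted p = 2.08e-05) and above FWctl (1.12 ± 0.13, adjusted p = 6.85e-10), and none of these 3 groups overlapped another. HFE, a partner of the transferrin receptors, was at 129.7 ± 8.52 under PBS, 142.6 ± 11.3 under FWctl and 110.3 ± 10.3 under FWatb, and was called in FWatb against FWctl alone (-0.37 ± 0.09, adjusted p = 0.000698). Whether its difference varied between comparisons was not tested.

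In haem metabolism, 9 of 13 genes (69.2%, against 46.4% of all genes) were called in FWctl against PBS, 5 higher and 4 lower. The first and last enzymes of synthesis moved in opposite directions. HMOX1, the inducible haem oxygenase that frees iron from haem, rose from 56.2 ± 4.05 (n = 4) under PBS to 274.4 ± 72.3 (n = 6) under FWctl, which is 4.9-fold (2.29 ± 0.15, adjusted p = 1.83e-16). It was at 104.5 ± 12 (n = 7) under FWatb, above PBS (0.89 ± 0.16, adjusted p = 0.000125) and below FWctl (-1.41 ± 0.12, adjusted p = 2.7e-13). HMOX2, its constitutive counterpart, moved the other way, from 287.2 ± 23.1 under PBS to 181.8 ± 16.1 under FWctl (-0.66 ± 0.09, adjusted p = 1.52e-07), and was at 319.9 ± 41.1 under FWatb. ALAS1, the first enzyme of haem synthesis, fell from 703.7 ± 59.9 to 424.9 ± 48.3 (-0.73 ± 0.09, adjusted p = 6.17e-09), and FECH, the last enzyme, which places iron into the ring, rose from 144.6 ± 8.39 to 290.8 ± 39.3 (0.99 ± 0.11, adjusted p = 4.84e-10). FECH was also above PBS under FWatb, at 229.9 ± 33.6 (0.66 ± 0.11, adjusted p = 3.71e-05). SLC25A38, a mitochondrial glycine carrier that feeds haem synthesis, was at 286.3 ± 33.2 under PBS, 375.5 ± 22.8 under FWctl and 233.8 ± 20.7 under FWatb, and its FWatb value was below that of FWctl (-0.68 ± 0.08, adjusted p = 1.45e-09).

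Of 13 tested genes of mitochondrial iron and iron-sulphur cluster assembly, 6 were called in FWctl against PBS (4 higher and 2 lower). That is 46.2%, against 46.4% of all genes. HSCB, a co-chaperone of cluster transfer, rose from 64.8 ± 11.8 (n = 4) to 108.9 ± 10.3 (n = 6; 0.74 ± 0.15, adjusted p = 6.97e-05), and ISCA1, a late assembly factor, from 206.0 ± 19.5 to 298.2 ± 14.9 (0.53 ± 0.10, adjusted p = 2.06e-05). SLC25A37, mitoferrin 1, which brings iron into the mitochondrion, fell from 314.4 ± 25.1 to 200.1 ± 7.4 (-0.65 ± 0.08, adjusted p = 1.07e-08). NFS1, the cysteine desulphurase that supplies sulphur, fell from 403.7 ± 15.3 to 331.5 ± 28.9 (-0.29 ± 0.08, adjusted p = 0.00248). In FWatb against FWctl, SLC25A37 (0.57 ± 0.07, adjusted p = 1.5e-08) and NFS1 (0.54 ± 0.07, adjusted p = 1.49e-08) were higher and HSCB was lower (-0.60 ± 0.13, adjusted p = 0.000181).

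Of the named genes outside the members, 8 were called in FWatb against PBS. HMOX1, FECH and TMPRSS6, given above, were called in every alternative. The other 5 were each lost without some single library and under other alternatives. STEAP1 was 0.29 ± 0.08 (adjusted p = 0.012), but 0.26 without PBS replicate 1 (adjusted p = 0.0728) or 2 (adjusted p = 0.0652). STEAP3 was 0.46 ± 0.11 (adjusted p = 0.00599), but 0.36 without PBS replicate 1 (adjusted p = 0.0603). SLC46A1 was 0.28 ± 0.09 (adjusted p = 0.0307) and 0.20 to 0.28 without PBS replicates 1 or 4 or FWatb replicates 1, 2, 3 or 4 (adjusted p of 0.0558 to 0.206). NFS1, the desulphurase, was 0.25 ± 0.08 (adjusted p = 0.0249) and 0.20 to 0.25 without PBS replicates 1, 2 or 3 or FWatb replicates 2 or 8 (adjusted p of 0.0567 to 0.109). SLC25A38, the glycine carrier, was -0.30 ± 0.09 (adjusted p = 0.0217), but -0.26 without PBS replicate 3 (adjusted p = 0.0997) and -0.24 without PBS replicate 4 (adjusted p = 0.129). Within the high-rDNA libraries, 4 of these 5 were not called: STEAP3 was 0.44 (adjusted p = 0.0876), SLC46A1 0.32 (adjusted p = 0.0793), NFS1 0.26 (adjusted p = 0.136) and SLC25A38 -0.15 (adjusted p = 0.492). Over all 22 samples, 3 were not called: STEAP1 was 0.28 (adjusted p = 0.114), SLC46A1 0.27 (adjusted p = 0.0958) and NFS1 0.24 (adjusted p = 0.11). With the library set as a term, NFS1 (0.24, adjusted p = 0.0719) and SLC25A38 (-0.23, adjusted p = 0.142) were not called.

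The genes whose levels ran most like those of 3 members were named by Pearson's r of log2 (normalised count + 1) over the 21 samples, among 9220 genes with a mean of at least 100. For TFRC they were SRPK1 (0.987), GINS1 (0.981) and TUBB6 (0.978). For FTH1 they were CHAC1 (0.932), WARS1 (0.931) and AARS1 (0.929), and for SLC40A1 they were ST6GAL1 (0.930), MALRD1 (0.925) and TP53INP1 (0.915). These values are a description of samples that share their conditions: with each condition centred on its mean, r was 0.44 to 0.55 for the TFRC genes, 0.60 to 0.65 for the FTH1 genes and 0.53 to 0.64 for the SLC40A1 genes.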

How the data were processed

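RNA of Caco-2 cells was sequenced from TruSeq Stranded Total RNA libraries with Ribo-Zero depletion, as paired reads of 150 bases. Per the methods, the authors trimmed reads with Trimmomatic 0.38, aligned them to GRCh38 with HISAT2 2.1.0 and counted them on genes of Ensembl release 105 with featureCounts of Subread 2.0.0. The strand setting and the handling of reads with several matches are not given in the sources used here. The deposited values are the authors' raw read counts, neither normalised nor filtered, for 61487 genes in 22 samples. Of the identifiers, 61369 were found in GENCODE release 44, which gave symbols and coordinates.

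Groups and replicates follow the labels of the samples. Differential expression was tested with edgeR 4.0.16 in R 4.3.3 (TMM, quasi-likelihood test, Benjamini-Hochberg adjustment at 0.05) in 1 model of the 4 groups over 21 samples, after keeping the 20373 genes that exceeded 5 counts in 3 or more samples. A positive log2 fold change means higher in the first group named. The code of the fitting steps was run on simulated counts in which few genes changed and every gene had the same spread. That setting differs from these data, so the run was a check of the code only. Intervals of log2 fold changes are at 95% and take 1.96 SE. The main model took no account of which mouse gave a sample, so its tests of FWatb against FWctl are unpaired. Only in the alternative fit with a block for the replicate number were FWctl and FWatb samples with 1 number paired as 1 mouse. Both faecal waters came from the same animals per the methods. That the numbers mark the animals is an inference, and the paired samples' deviations from the group means correlated at 0.0386 on average (-0.00247 to 0.0979 over the 6 pairs, and -0.00646 for other numbers).

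All members are named. From the wider list, up to 3 genes per role were named, by the largest absolute log2 fold change among those called in FWctl against PBS or in FWatb against FWctl with a mean of at least 50. The members and lists were chosen with earlier results of these data known. Alternatives were all 22 samples, DESeq2 1.42.0, edgeR scaled by DESeq2's size factors or by library size only, looser and stricter low-count filters, fits restricted to the compared groups, a block for the replicate number, a fold threshold, ferritin genes summed with their processed copies, and each replicate left out. Fits by library set (divided at 0.5% of counts within 20 kb of RNA5-8SN1 to RNA5-8SN3) were chosen after seeing the data. These fits left out FWctl replicate 1, as the tests did, and any group with 1 sample in the set. No pair of replicates agreed within counting noise (chi-square of 3.61 or more per degree of freedom), so no pair was treated as the same library.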

Additional observations from a re-analysis of the deposited data

Results flagged for a closer look

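FWctl replicate 1 lay far from the other 6 FWctl samples for 4 members. TFRC was at 14434 (others 6562 to 7841), SLC11A2 at 3262 (others 1473 to 1990), CYBRD1 at 856.6 (others 677.6 to 733.3) and FTL at 20592 (others 41029 to 53985), in normalised counts. Under FWatb, IREB2 was at 1088 in replicate 6 and at 826.9 to 913.9 in the other samples. In each case the gap from that sample to the nearest other exceeded Dixon's 95% critical value. Of the 45 groups of 4 to 7 samples examined, 5 met this rule: 1 of 36 without FWctl replicate 1, and 4 of the 9 FWctl groups with it. Chance alone would give about 1 in 20 for independent groups. That rate does not hold for the 9 groups with FWctl replicate 1. They share 1 library, which was set apart for its place in these same data. Why these samples stood apart was not tested.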

How the results depend on the processing

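Over 755 alternative fits of the 9 members, 698 kept the direction and the side of the threshold, 28 lost a call, 6 gained one and 23 changed sign. For the 18 other named genes, 1415 of 1494 kept both, 58 lost a call, 3 gained one and 18 changed sign. All changes of sign were of values that were not called. In FWatb against PBS, SLC39A14 moved to 0.06 (library size alone), 0.02 (replicate block), 0.02 and 0.01 (without PBS replicates 3 and 4), 0.08 (high-rDNA libraries) and 0.04 (library set as a term), and FTH1 to 0.00 and -0.03 (without PBS replicates 3 and 4), -0.02 and 0.00 (without FWatb replicates 4 and 8) and -0.15 (high-rDNA libraries). With library size alone, FBXL5 moved to 0.02, and FLVCR1 and SLC25A37 to 0.00. In ATB against PBS, values that changed sign were -0.05 for SLC39A14 (low-rDNA libraries), -0.01 for HEPH, 0.00, -0.01, -0.02, -0.03, -0.06 and -0.08 for FTH1, -0.03 for ACO1, -0.01, -0.03 and -0.05 for FECH, -0.03 and -0.07 for ISCA1, 0.01, 0.02, 0.05 and 0.06 for SLC25A38, and 0.01, 0.07 and 0.08 for STEAP3. With 1 replicate left out at a time, these genes ran from -0.01 to 0.09 (HEPH), -0.07 to 0.11 (ISCA1), -0.09 to 0.06 (SLC25A38) and -0.10 to 0.08 (STEAP3), and FTH1 in FWatb against PBS from -0.03 to 0.11.

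In FWatb against PBS, the wider list had 18 calls, but 11 over all 22 samples and 8 in the high-rDNA libraries. All genes had 2035 calls, but 1227, 1127 and, with the replicate block, 3229. In ATB against PBS, the members and the wider list had 1 edgeR call each, CYBRD1, and 0 over all 22 samples, with library size alone, with no filter, with only those 2 groups and in the low-rDNA libraries. In those fits, 1 member and 4 to 6 genes of the wider list had an unadjusted p under 0.05, and DESeq2 called 1 in each. All genes had 58 calls in that comparison, but 5 over all 22 samples, 222 with DESeq2, 14 with library size alone, 111 with no filter, 315 with the replicate block and 23 in the low-rDNA libraries. In FWatb against FWctl, requiring an absolute log2 fold change above 1 left 3 of 6 members and 2590 of 9942 genes.

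With 1 replicate left out at a time, calls were 7 to 8 (members), 32 to 36 (wider list) and 8716 to 9365 (all genes) in FWctl against PBS. They were 3 to 4, 11 to 18 and 1334 to 2589 in FWatb against PBS, 0 to 1, 0 to 1 and 7 to 93 in ATB against PBS, and 6 to 7, 33 to 39 and 9316 to 9850 in FWatb against FWctl. The list count of 11 came without PBS replicate 1 or 2, the 1334 genes without PBS replicate 2, and the 7 and 93 genes without ATB replicates 3 and 2. With the replicate block, which pairs mice only between FWatb and FWctl, IREB2 gained a call there and SLC39A8 lost one (-0.20, adjusted p = 0.0637), and no other member or named gene changed its call in that comparison. In FWctl against PBS, where the numbers link no samples, the block ended the calls of HEPH (0.13, adjusted p = 0.285), FBXL5 (0.17, adjusted p = 0.171) and STEAP1 (-0.22, adjusted p = 0.0972). A division of libraries by reads on annotated ribosomal DNA transcripts alone was planned but not run, since no library passed 0.5% by it. FWatb could not be compared within the low-rDNA set, which holds no FWatb library. The causes of these shifts were not tested.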
